A study of Homo sapiens with 24 samples.

Results

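The endoplasmic reticulum (ER) folding and secretion genes were followed across FOXA1 and ZBED2 knock-downs in 2 bladder cancer cell lines. The set held 41 genes of the 58721 in the deposited count table, taken by gene symbol. It covered 5 ER chaperones, 5 protein disulfide isomerases, 5 J-domain co-chaperones with their partner SDF2L1 counted among them, 2 secreted stress proteins, 4 genes of the stress sensors and their factor, 6 genes of ER-associated degradation, 3 subunits of the SEC61 translocon, 4 of the translocon-associated protein complex, 3 of signal peptidase and 4 of the oligosaccharyltransferase. Of these 41 genes, 40 passed the low-count filter. The remaining gene, the disulfide isomerase TXNDC5, had counts in 4 of 24 libraries with at most 12 counts in any of them, and was not tested.

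Secretory and membrane proteins enter the ER through the SEC61 channel, lose their signal peptide, receive N-linked sugars and fold with the help of chaperones and disulfide isomerases. When unfolded proteins build up, the sensors ATF6, IRE1 (gene ERN1) and PERK (gene EIF2AK3) start the unfolded protein response, in which cleaved ATF6 and spliced XBP1 raise transcription of the folding machinery, and PERK lowers translation and favours ATF4. Proteins that fail to fold are pulled back to the cytosol and degraded. HSPA5 (BiP) is the most widely used reporter of this response. The counts here were per gene, so neither XBP1 splicing nor ATF6 cleavage was measured.

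RT112, a luminal papillary line grown in RPMI, and SCaBER, a basal/squamous line grown in DMEM, both with 10% FBS, were transfected with siRNAs using Lipofectamine RNAiMax and profiled by 3′ mRNA sequencing. Each line had 6 groups of 2 libraries: siControl (number 2 in the labels), siFOXA1 (number 1), siZBED2-1, siZBED2-2, siFOXA1+siZBED2-1 and siFOXA1+siZBED2-2. FOXA1 was thus targeted with 1 siRNA, and every library including siControl came from transfected cells. FOXA1 encodes a pioneer factor of luminal urothelial identity, and ZBED2 a zinc finger transcription factor. Levels are given as CPM, the counts of a gene per 1000000 counts of the library after TMM scaling of its size.

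Libraries held 4425404 to 6119210 counts, so that 3 counts corresponded to 0.474 to 0.679 CPM. Mitochondrial genes took 12.2 to 17.8% of counts in RT112 siControl and 21.4 to 22.7% in RT112 siFOXA1, and 9.73 to 10.7% against 12.5 to 12.9% in SCaBER. In RT112, FOXA1 stood at 41.9 and 41.4 CPM with siControl and at 6.87 and 9.57 CPM with siFOXA1 (log2 fold change −2.36 ± 0.38, adjusted p = 5.68e-05; here and below ± is the standard error of the log2 fold change). In SCaBER, FOXA1 was already low, at 3.74 and 5.51 CPM with siControl and 0.819 and 1.36 CPM with siFOXA1, and the drop did not pass the test (log2 fold change −2.09 ± 1.23, adjusted p = 0.272). ZBED2 stood at 22.1 and 16.9 CPM in RT112 siControl and at 18.9 CPM in both SCaBER siControl libraries. In RT112 it was at 2.38 and 0 CPM with siZBED2-1 and at 7.34 and 6.30 CPM with siZBED2-2, and in SCaBER at 2.41 and 7.39 CPM and at 8.74 and 15.8 CPM, so siZBED2-2 left more ZBED2 than siZBED2-1. With siFOXA1 alone, ZBED2 also fell in RT112, to 5.46 and 1.52 CPM. The summed level of 9 luminal urothelial markers was 2738 to 2739 CPM in RT112 and 1182 to 1209 CPM in SCaBER siControl libraries, and that of 7 basal and squamous markers 464 to 518 CPM and 2821 to 2984 CPM. With siFOXA1 the luminal sum was 1763 to 2017 CPM in RT112 and 831 to 946 CPM in SCaBER, below siControl in both lines, and the basal sum was 646 to 688 CPM in RT112, above siControl, and 2694 to 2854 CPM in SCaBER, where the groups overlapped. The basal markers went both ways in RT112: KRT5, CD44 and EGFR were above siControl, KRT14, KRT16 and TP63 below it, and KRT6A overlapped. TP63 was at 5.22 to 8.49 CPM there, against 15.51 to 34.98 CPM with siControl. Of the luminal markers in SCaBER, FOXA1, PPARG and KRT18 were below siControl, and GATA3, UPK2 and KRT8 overlapped. KRT18 was at 415.5 to 484.5 CPM against 733.1 to 748.7 CPM. With siZBED2-1 the basal sum was 618 to 635 CPM in RT112 and 4511 to 4635 CPM in SCaBER, above siControl in both lines. In RT112, CD44 and EGFR were above siControl with siZBED2-1, KRT14 and KRT16 were below it, and the other basal markers overlapped. Of 5 fibroblast markers only COL1A1 had counts in the siControl and siFOXA1 libraries, at 4.42 to 5.02 CPM against 40.01 to 42.65 CPM in RT112 and 5.71 to 6.36 CPM against 13.6 to 14.1 CPM in SCaBER, while COL1A2, COL3A1, DCN and PDGFRB were at 0 in all of these. The 5 leukocyte markers summed to at most 2.58 CPM in any RT112 library and 6.56 CPM in any SCaBER library, with LYZ at 0 throughout, and the 3 endothelial markers to at most 5.68 CPM. The part of these shifts in the results was not tested.

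Promoters of these genes are shown first, because the elements through which ATF6 and XBP1 act are written in some of them. RefSeq windows (GRCh38.p14) from 250 bases before to 50 after the start were at hand for 37 of the 41 genes and for 27305 genes in all, and were searched on both strands. The ER stress response element, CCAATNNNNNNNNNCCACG, was in 7 of the 37 (18.9%) against 25 of all genes (0.0916%). Its compact form, ERSE-II, ATTGGNCCACG, was in 3 of the 37 (8.11%) against 19 of all genes (0.0696%). The core of the unfolded protein response element, TGACGTGG, was in 5 (DNAJC10, HYOU1, SSR3, SSR4 and TXNDC5; 13.5%) against 253 of all genes (0.927%), and in HYOU1 it overlapped one of that gene's ERSE-II matches. Many of these genes are known for this response, so the shares describe the set and were not tested. The 250 upstream bases of HSPA5 (chr9:125241344-125241593, minus strand), HYOU1 (chr11:119057206-119057455, minus strand) and HERPUD1 (chr16:56931892-56932141, plus strand) are printed 5′ to 3′ on the strand of the gene, since these genes carry the elements and moved in different directions below. Capitals mark exact matches only, of the ERSE in HSPA5 and of the ERSE-II in HYOU1 and HERPUD1. Looser matches were not searched for.
HSPA5: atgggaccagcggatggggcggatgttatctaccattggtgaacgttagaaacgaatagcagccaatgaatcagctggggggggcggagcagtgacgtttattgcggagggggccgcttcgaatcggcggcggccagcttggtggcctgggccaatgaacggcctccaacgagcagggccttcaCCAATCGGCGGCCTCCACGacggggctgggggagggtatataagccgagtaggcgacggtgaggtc
HYOU1: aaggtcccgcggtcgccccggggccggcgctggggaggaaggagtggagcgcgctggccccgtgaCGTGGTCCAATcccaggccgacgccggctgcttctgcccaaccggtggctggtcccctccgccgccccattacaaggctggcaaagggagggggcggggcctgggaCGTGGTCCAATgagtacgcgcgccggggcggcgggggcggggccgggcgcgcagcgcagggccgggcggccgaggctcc
HERPUD1: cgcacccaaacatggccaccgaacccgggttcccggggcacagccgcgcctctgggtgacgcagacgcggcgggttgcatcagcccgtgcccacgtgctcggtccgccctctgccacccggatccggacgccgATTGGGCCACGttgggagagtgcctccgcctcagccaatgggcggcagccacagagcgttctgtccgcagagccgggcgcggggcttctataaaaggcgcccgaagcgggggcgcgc

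The other genes with an ERSE or ERSE-II are shown by the element in capitals with 10 bases on either side, again on the strand of the gene (GRCh38.p14), where an element in the opposite orientation reads as its reverse complement. They were HSP90B1 (chr12:103930206-103930244 and chr12:103930311-103930349, plus strand), CALR (chr19:12938374-12938412, plus strand), CANX (chr5:179698768-179698806, plus strand), PDIA6 (chr2:10812843-10812881, minus strand), CRELD2 (chr22:49918544-49918582, plus strand), XBP1 (chr22:28800593-28800631, minus strand) and SDF2L1 (chr22:21642104-21642134, plus strand).
HSP90B1, distal: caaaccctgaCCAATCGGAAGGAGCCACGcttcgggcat
HSP90B1, proximal: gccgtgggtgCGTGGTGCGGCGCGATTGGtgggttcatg
CALR: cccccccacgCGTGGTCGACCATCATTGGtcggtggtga
CANX: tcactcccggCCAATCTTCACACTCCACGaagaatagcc
PDIA6: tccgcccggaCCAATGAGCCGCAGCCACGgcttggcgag
CRELD2: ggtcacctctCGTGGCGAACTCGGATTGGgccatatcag
XBP1: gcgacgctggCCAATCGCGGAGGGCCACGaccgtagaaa
SDF2L1: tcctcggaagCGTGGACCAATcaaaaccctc

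The first question was how the ER genes responded to the FOXA1 siRNA. In SCaBER the drop of FOXA1 itself had not passed the test. In RT112, 11 of the 40 genes tested were higher with siFOXA1 than with siControl and 2 were lower, where 11.3% and 11.9% of 13264 genes were called higher and lower (edgeR's quasi-likelihood test, Benjamini-Hochberg adjusted p under 0.05). Calls below are by this test unless another fit is named. In SCaBER, 16 were higher and 1 was lower, against 8.71% and 9.12% of 13129 genes. RT112 had a median log2 fold change of 0.26 over the 40 genes and SCaBER one of 0.38, beside −0.01 and −0.02 over all genes. CALR, HYOU1, PDIA6, DNAJB9, HERPUD1, SSR3 and RPN2 were higher in both lines, 23 genes were called in at least 1 line, and none was called in opposite directions. The shares of all genes called in both lines or in at least 1 line were not counted. Counts in bulk RNA are relative to all RNA of the cells, so fewer cells of a kind and less RNA per cell cannot be told apart.

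**Figure D1:**
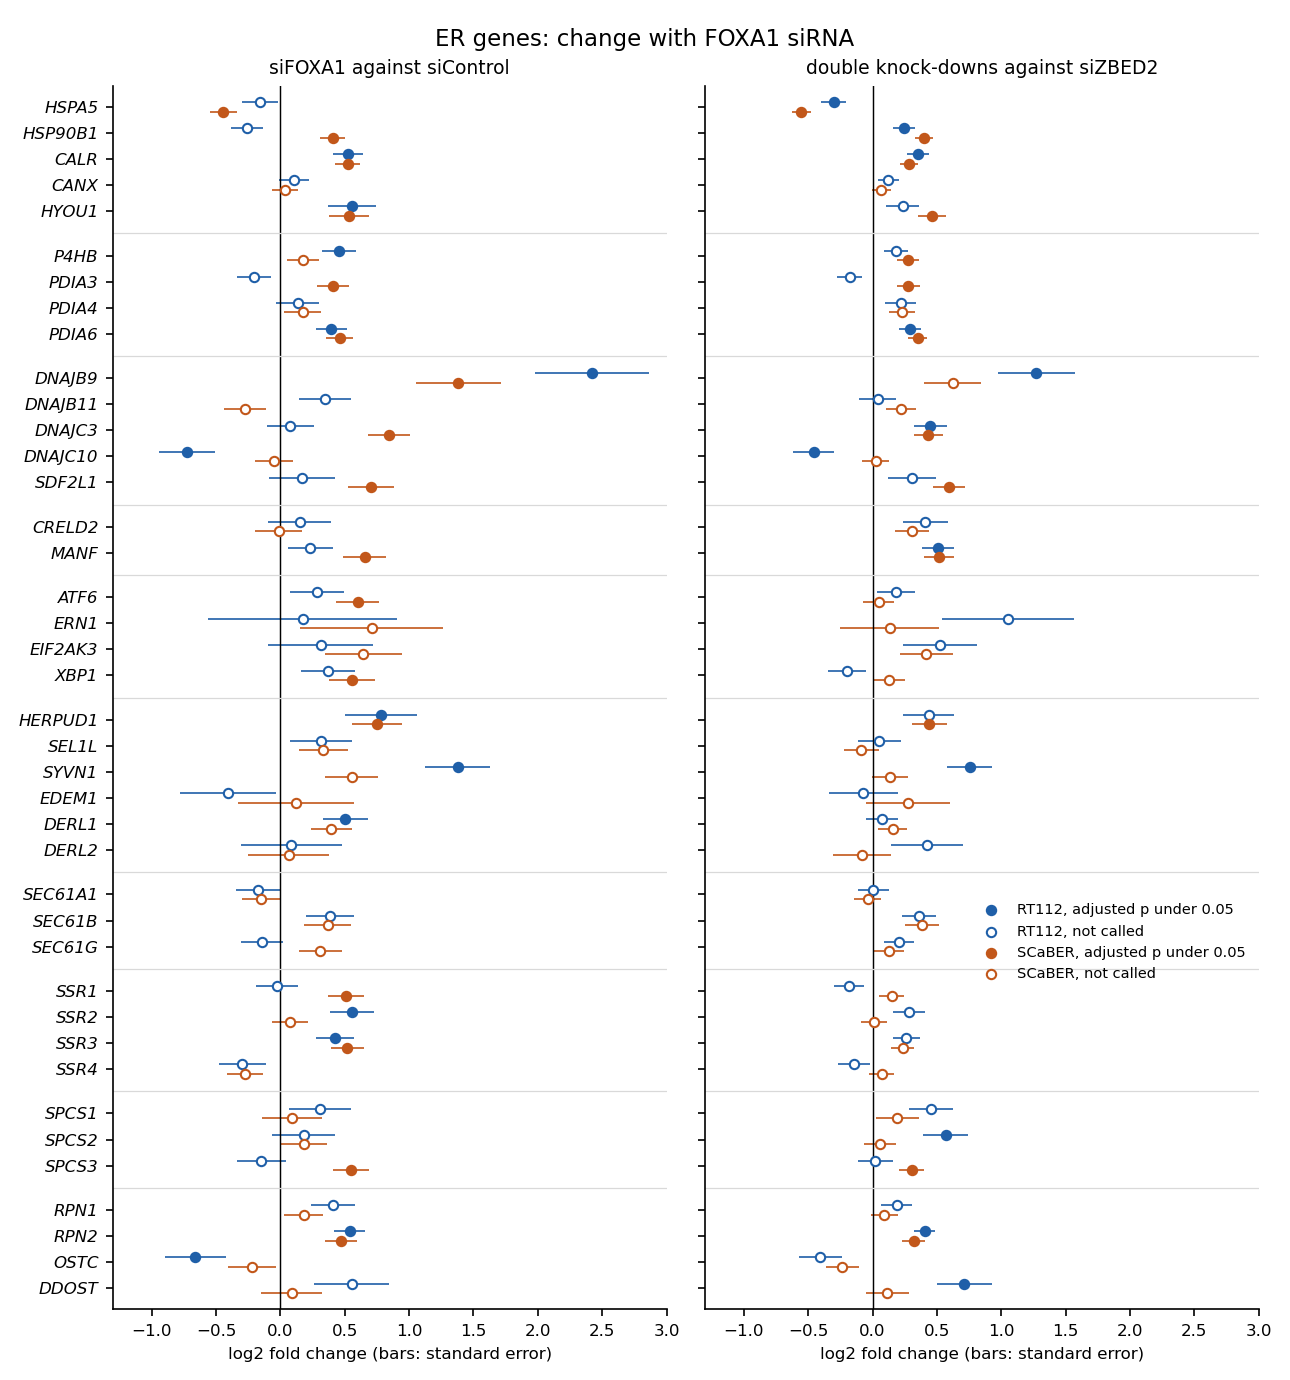
Log2 fold change of the 40 tested ER genes (points, with the standard error as bars) for siFOXA1 against siControl, and for the double knock-downs against the siZBED2 libraries, in RT112 (blue) and SCaBER (orange), with genes grouped by role. Filled points passed the test; DNAJB9 has the highest value on the left, 2.42 in RT112, and the SCaBER value of HSPA5 lies left of zero in both panels, at −0.44 and −0.55.

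The size of the shift in RT112 depended on the scaling. Scaled to library size alone, the median of all genes moved to −0.11 in RT112 and −0.09 in SCaBER, that of the ER genes to 0.16 and 0.31, and the calls to 4 higher and 2 lower in RT112 and 14 higher and 1 lower in SCaBER. With limma on log2(TPM + 1), the median of all genes was −0.26 in RT112 and −0.13 in SCaBER, that of the ER genes −0.04 and 0.25, and the calls 2 higher and 1 lower in each line, so the ER genes stayed above the median of all genes but in RT112 no longer above 0. In RT112, the 13 calls became 4 without siFOXA1 replicate 2, 5 without siControl replicate 1 and 6 without siControl replicate 2, and DNAJB9, SYVN1 and RPN2 were called whichever library was left out. In SCaBER, the 17 calls became 11 without siControl replicate 1 and 14 to 15 without any other library, and HSPA5, HSP90B1, CALR, PDIA6, DNAJB9 and DNAJC3 were called each time.

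Of the ER chaperones, CALR and HYOU1 rose in both lines, whereas HSPA5 did not rise in either. CALR, the calcium-binding lectin chaperone calreticulin, stood at 794 and 831 CPM in RT112 siControl and at 1082 and 1281 CPM in siFOXA1 (log2 fold change 0.53 ± 0.12, adjusted p = 0.00171). In SCaBER it stood at 1106 and 1187 CPM against 1556 and 1783 CPM (0.52 ± 0.10, adjusted p = 0.000133). The siFOXA1 and siControl libraries did not overlap in either line. HYOU1, the large ER chaperone that exchanges nucleotide on BiP, was at 95.0 and 81.7 CPM against 135 and 127 CPM in RT112 (0.55 ± 0.18, adjusted p = 0.0298). Its SCaBER levels were 128 and 108 CPM against 187 and 158 CPM (0.53 ± 0.15, adjusted p = 0.0119). The groups did not overlap in either line.

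HSPA5, the ER Hsp70 to which the sensors bind, was at 467 and 435 CPM in RT112 siControl and at 371 and 445 CPM in siFOXA1 (−0.16 ± 0.14, adjusted p = 0.45). In SCaBER it fell, from 1179 and 1151 CPM to 910 and 823 CPM (−0.44 ± 0.10, adjusted p = 0.00218). The RT112 groups overlapped and the SCaBER groups did not. HSP90B1, the ER Hsp90 (GRP94), was at 840 and 860 CPM against 702 and 732 CPM in RT112 (−0.26 ± 0.12, adjusted p = 0.137). In SCaBER it rose, from 1172 and 1222 CPM to 1530 and 1683 CPM (0.41 ± 0.10, adjusted p = 0.0026). HSP90B1 was the only ER gene whose response differed between the lines by the test of the difference itself (RT112 less SCaBER −0.67 ± 0.16, adjusted p = 0.0134), where 1.17% of 14823 genes had a higher and 1.41% a lower response in RT112. With a replicate block PDIA3 passed as well, making 2 genes, and without SCaBER siControl replicate 1 none did. With DESeq2 other ER genes passed the test of the line difference besides HSP90B1, and with limma on log2(TPM + 1) none did. CANX, the membrane-bound lectin chaperone calnexin, was called in neither line.

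The ERSE-bearing genes did not move as one. Of the 10 genes with an ERSE or ERSE-II printed above, 7 rose and 1 fell in SCaBER, with a median log2 fold change of 0.49, and the one that fell was HSPA5. In RT112, 4 rose and none fell, with a median of 0.27. Of the 26 tested genes whose windows held neither element, 8 rose and none fell in SCaBER (median 0.32), and 6 rose and 2 fell in RT112 (median 0.21). Over all genes, 8.71% were called higher and 9.12% lower with siFOXA1 in SCaBER, and 11.3% and 11.9% in RT112. Only exact matches of the letters within the windows counted as an element. The values by element are a description and no test of the elements was made.

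**Figure D2:**
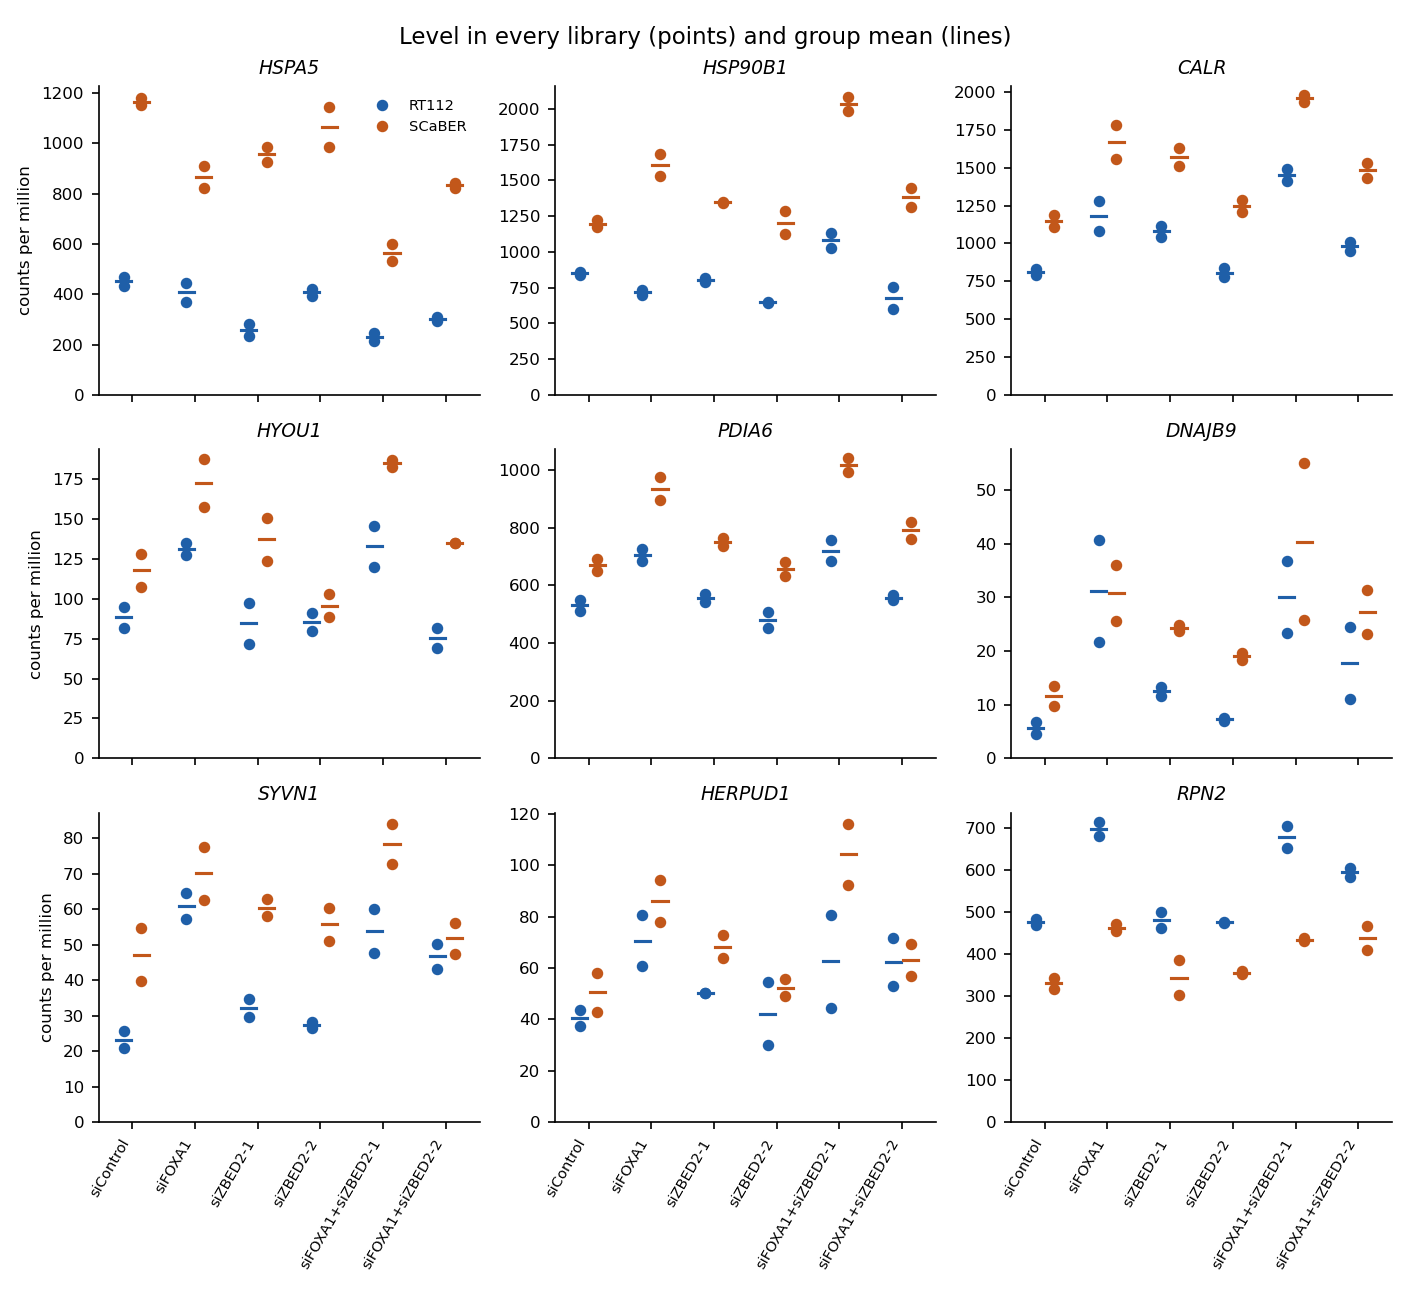
Level in CPM of 9 ER genes in each library (points), with the mean of the 2 libraries of a group (lines), for RT112 (blue) and SCaBER (orange), each panel with its own axis from 0. HSPA5 is at its lowest with siFOXA1+siZBED2-1 in both lines, 248 and 215 CPM in RT112 and 598 and 533 CPM in SCaBER, where CALR is at its highest, 1413 and 1493 CPM and 1934 and 1978 CPM.

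Among the disulfide isomerases, which form and reshuffle disulfide bonds, PDIA6 rose in both lines. PDIA6 was at 510 and 550 CPM against 683 and 726 CPM in RT112 (0.39 ± 0.12, adjusted p = 0.0188), and at 651 and 691 CPM against 974 and 896 CPM in SCaBER (0.46 ± 0.10, adjusted p = 0.00127). All siFOXA1 libraries lay above their siControl libraries. P4HB, the archetypal protein disulfide isomerase, rose in RT112, from 417 and 385 CPM to 504 and 608 CPM (0.46 ± 0.13, adjusted p = 0.0124). The SCaBER levels of P4HB were 327 and 314 CPM against 367 CPM in both siFOXA1 libraries (0.18 ± 0.12, adjusted p = 0.365). PDIA3, which works with calnexin and calreticulin on glycoproteins, rose in SCaBER, from 491 and 475 CPM to 740 and 555 CPM (0.41 ± 0.12, adjusted p = 0.0193). Its RT112 levels were 317 and 350 CPM against 280 and 305 CPM (−0.21 ± 0.13, adjusted p = 0.3), with no overlap but in the opposite direction. PDIA4 was called in neither line.

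DNAJB9 had the steepest change of the set. This J-domain co-chaperone (ERdj4), a classical target of spliced XBP1 and a repressor of IRE1, was at 4.59 and 6.81 CPM in RT112 siControl and at 21.6 and 40.7 CPM in siFOXA1 (2.42 ± 0.44, adjusted p = 0.000204). In SCaBER it was at 9.73 and 13.6 CPM against 25.6 and 35.98 CPM (1.38 ± 0.33, adjusted p = 0.00241). Every siFOXA1 library lay above every siControl library of its line, although the 2 RT112 siFOXA1 libraries were far from each other. DNAJC3 (p58IPK), an inhibitor of PERK, rose in SCaBER, from 71.3 and 80.9 CPM to 128 and 149 CPM (0.84 ± 0.16, adjusted p = 0.000226). In RT112 the groups overlapped, at 105 and 88.2 CPM against 110 and 96.0 CPM (0.08 ± 0.18, adjusted p = 0.814). SDF2L1, a partner of the ER J-domain proteins, was at 55.4 and 57.1 CPM against 110 and 76.0 CPM in SCaBER (0.71 ± 0.18, adjusted p = 0.00499). Its RT112 levels were 48.3 and 48.4 CPM against 57.8 and 52.0 CPM (0.17 ± 0.26, adjusted p = 0.697). DNAJC10 (ERdj5), a disulfide reductase that serves ER-associated degradation, fell in RT112, from 66.0 and 68.1 CPM to 42.2 and 39.6 CPM (−0.73 ± 0.22, adjusted p = 0.0171). The SCaBER groups of DNAJC10 overlapped, at 134 and 111 CPM against 117 and 122 CPM (−0.05 ± 0.15, adjusted p = 0.878). DNAJB11 was called in neither line.

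MANF, a small secreted protein that binds BiP, rose in SCaBER from 127 and 146 CPM to 190 and 245 CPM (0.65 ± 0.16, adjusted p = 0.00407). In RT112 it was at 115 and 124 CPM against 157 and 126 CPM (0.23 ± 0.17, adjusted p = 0.369). The groups did not overlap in either line, but the lower RT112 siFOXA1 library was close to the higher siControl library. CRELD2, another ER stress-inducible protein, was called in neither line. Of the sensor genes, ATF6 rose in SCaBER from 101 and 77.2 CPM to 142 and 131 CPM (0.60 ± 0.17, adjusted p = 0.00931). XBP1 did so as well, from 71.8 and 74.0 CPM to 102 and 116 CPM (0.56 ± 0.18, adjusted p = 0.0248). In RT112, ATF6 was at 55.0 and 62.4 CPM against 63.6 and 81.2 CPM (0.29 ± 0.21, adjusted p = 0.356). There, XBP1 was at 65.5 and 91.9 CPM against 77.2 and 129 CPM (0.37 ± 0.21, adjusted p = 0.229), with overlapping groups. The kinases ERN1 and EIF2AK3 were called in neither line, and ERN1 stood at only 2.58 to 10.4 CPM in RT112 and 3.16 to 11.6 CPM in SCaBER over all libraries.

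In ER-associated degradation, HERPUD1 rose in both lines. HERPUD1, an organiser of the degradation complex, was at 43.7 and 37.6 CPM against 60.6 and 80.7 CPM in RT112 (0.78 ± 0.28, adjusted p = 0.0433). In SCaBER it was at 58.2 and 42.9 CPM against 78.0 and 94.4 CPM (0.75 ± 0.19, adjusted p = 0.00542). SYVN1 (HRD1), the ubiquitin ligase of that complex, rose in RT112 from 25.6 and 21.0 CPM to 57.4 and 64.6 CPM (1.38 ± 0.25, adjusted p = 0.000204). No groups of these genes overlapped. In SCaBER, SYVN1 was at 39.7 and 54.7 CPM against 62.6 and 77.6 CPM (0.55 ± 0.20, adjusted p = 0.0554). DERL1, a channel protein of the same complex, rose in RT112 from 92.4 and 113 CPM to 125 and 170 CPM (0.50 ± 0.18, adjusted p = 0.0388). Its SCaBER levels were 100 and 104 CPM against 130 and 142 CPM (0.40 ± 0.16, adjusted p = 0.0788). Both genes had no overlap in SCaBER either, and missed the threshold there. SEL1L, EDEM1 and DERL2 were called in neither line.

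The machinery of entry and glycosylation moved in part. None of SEC61A1, SEC61B and SEC61G, which form the channel, was called with siFOXA1 in either line. In the double knock-downs described below, SEC61B missed the threshold in RT112 (0.36 ± 0.13, adjusted p = 0.0581) and SCaBER (0.39 ± 0.13, adjusted p = 0.0562), and it was called higher there in both lines with a replicate block, without the filter on low counts and in fits of the compared groups only. Of the translocon-associated protein subunits, SSR3 rose in both lines, from 219 and 262 CPM to 306 and 347 CPM in RT112 (0.42 ± 0.15, adjusted p = 0.0368) and from 207 and 227 CPM to 313 and 317 CPM in SCaBER (0.52 ± 0.13, adjusted p = 0.00347). SSR2 rose in RT112, from 105 and 145 CPM to 181 and 192 CPM (0.56 ± 0.17, adjusted p = 0.0185), and was at 161 and 186 CPM against 184 and 187 CPM in SCaBER (0.08 ± 0.14, adjusted p = 0.786). SSR1 rose in SCaBER, from 136 and 123 CPM to 203 and 169 CPM (0.51 ± 0.14, adjusted p = 0.00881), and was at 166 and 189 CPM against 202 and 150 CPM in RT112 (−0.02 ± 0.16, adjusted p = 0.938). Groups overlapped for SSR2 in SCaBER and SSR1 in RT112 and were apart for the calls, and SSR4 was called in neither line. SPCS3, a subunit of signal peptidase, rose in SCaBER from 124 and 139 CPM to 203 and 186 CPM (0.55 ± 0.14, adjusted p = 0.00488). In RT112 its groups overlapped, at 95.9 and 96.8 CPM against 105 and 70.7 CPM (−0.15 ± 0.19, adjusted p = 0.633). SPCS1 and SPCS2 were called in neither line.

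RPN2, a subunit of the oligosaccharyltransferase, rose in both lines. It was at 468 and 485 CPM against 682 and 715 CPM in RT112 (0.54 ± 0.12, adjusted p = 0.00148), and at 318 and 342 CPM against 454 and 471 CPM in SCaBER (0.47 ± 0.12, adjusted p = 0.00574). Its replicates lay closer together than the groups in both lines. OSTC, another subunit of the same enzyme, fell in RT112 from 62.9 and 58.0 CPM to 32.7 and 44.6 CPM (−0.66 ± 0.23, adjusted p = 0.0422). The SCaBER levels of OSTC were 67.5 and 74.8 CPM against 55.1 and 68.8 CPM (−0.22 ± 0.19, adjusted p = 0.489), with overlap. RPN1 and DDOST were not called with siFOXA1 in either line, so subunits of one enzyme were called in opposite directions in RT112.

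Genes of the pathway outside the set were read from 4 lists, chosen with earlier results of these data known. Their counts stand beside the 11.3% higher and 11.9% lower of all genes in RT112 and the 8.71% and 9.12% in SCaBER. Of 10 genes of the integrated stress response and the PERK branch, 3 rose in RT112 and 5 in SCaBER with siFOXA1, and none fell. PPP1R15A (GADD34), which brings the eIF2 phosphatase, was at 29.7 and 21.0 CPM against 44.3 and 75.7 CPM in RT112 (1.23 ± 0.29, adjusted p = 0.00245) and at 53.5 and 46.7 CPM against 105 and 115 CPM in SCaBER (1.11 ± 0.19, adjusted p = 4.18e-05). SESN2, a stress-induced regulator of mTORC1, changed by 1.14 ± 0.28 in RT112 (adjusted p = 0.00337) and by 1.28 ± 0.20 in SCaBER (adjusted p = 1.25e-05) on the log2 scale. ATF3, a stress-induced factor, changed by 1.5 ± 0.49 (adjusted p = 0.0281) and by 1.97 ± 0.31 (adjusted p = 1.46e-05). In SCaBER alone, PPP1R15B (0.76 ± 0.19, adjusted p = 0.00407) and TRIB3 (0.78 ± 0.25, adjusted p = 0.0292) also passed. The mRNA of ATF4, the factor that PERK favours, was at 152 and 129 CPM against 137 and 130 CPM in RT112 and 237 and 236 CPM against 265 and 250 CPM in SCaBER, and was not called. DDIT3 (CHOP) was at 7.11 and 8.47 CPM against 17.6 and 15.4 CPM in SCaBER and missed the threshold (1.06 ± 0.39, adjusted p = 0.0546).

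Of 19 tested genes of other unfolded protein response and folding functions, 3 rose and 2 fell in RT112, and 3 rose and 1 fell in SCaBER, counts near the shares over all genes. GANAB, the catalytic subunit of glucosidase II that trims glycans for the calnexin cycle, fell in both, from 187 and 177 CPM to 88.7 and 79.6 CPM in RT112 (−1.13 ± 0.19, adjusted p = 7.09e-05) and from 233 and 211 CPM to 151 and 123 CPM in SCaBER (−0.71 ± 0.15, adjusted p = 0.000674). The ER prolyl isomerases FKBP14 and FKBP2 rose in both: FKBP14 by 1.36 ± 0.19 (adjusted p = 8.26e-06) and 0.68 ± 0.17 (adjusted p = 0.00314), FKBP2 by 0.93 ± 0.16 (adjusted p = 0.000112) and 0.53 ± 0.14 (adjusted p = 0.00522). Within the same list, CREB3L2 rose (0.59 ± 0.18, adjusted p = 0.022) and CREB3 fell (−0.88 ± 0.28, adjusted p = 0.022) in RT112, and SIL1, a nucleotide exchange factor of BiP, rose in SCaBER (0.82 ± 0.21, adjusted p = 0.00559).

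Of 11 tested genes of other ER-associated degradation, 3 rose in RT112 and 2 in SCaBER, and none fell. FAF2, which recruits the segregase VCP to the ER membrane, rose in both, from 120 and 107 CPM to 225 CPM in both RT112 libraries (0.97 ± 0.16, adjusted p = 9.3e-05) and from 116 and 127 CPM to 196 and 161 CPM in SCaBER (0.53 ± 0.15, adjusted p = 0.0127). Also higher were EDEM3 (0.71 ± 0.25, adjusted p = 0.0403) and VCP (0.37 ± 0.13, adjusted p = 0.0405) in RT112, and OS9 (0.61 ± 0.18, adjusted p = 0.0149) in SCaBER. Of 21 genes of other targeting, translocation and glycosylation functions, 5 rose in RT112 and 3 in SCaBER, and none fell. MAGT1, a subunit of an oligosaccharyltransferase complex, rose in both (0.72 ± 0.19, adjusted p = 0.0061, and 0.61 ± 0.20, adjusted p = 0.0274). The others were SEC62 (0.78 ± 0.16, adjusted p = 0.000795), SRPRB (0.80 ± 0.17, adjusted p = 0.000924), SRP54 (0.68 ± 0.20, adjusted p = 0.0153) and TRAM1 (0.49 ± 0.16, adjusted p = 0.0321) in RT112, and SEC63 (0.48 ± 0.14, adjusted p = 0.0131) and SRPRA (0.87 ± 0.28, adjusted p = 0.0297) in SCaBER. SRPRB and SRPRA encode the signal recognition particle receptor, SRP54 its ligand's signal-binding subunit, and SEC62, SEC63 and TRAM1 partners of the SEC61 channel.

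The double knock-downs gave a second reading of the same FOXA1 siRNA in libraries that the comparison above did not use. The study's text does not state whether total siRNA was equal in single and double knock-downs, and its part in the result was not tested. Set against the 4 siZBED2 libraries, the 4 double knock-down libraries had 10 ER genes higher and 2 lower in RT112, where 9.88% and 10.2% of all genes were called, and 12 higher and 1 lower in SCaBER, where 5.24% and 4.9% were. The median log2 fold change of the ER genes was 0.24 in RT112 and 0.21 in SCaBER, against −0.01 and 0.00 for all genes. With scaling to library size the calls were 5 higher and 3 lower in RT112 and 8 and 1 in SCaBER, and with limma on log2(TPM + 1) they were 0 and 2, and 3 and 1. On that scale the median of the ER genes in RT112 was −0.02 beside −0.22 for all genes. Mitochondrial genes took 18.6 to 20.6% of counts in the RT112 double knock-downs and 8.22 to 16.9% with siZBED2, where siZBED2-2 replicate 2 was the lowest, and 9.29 to 11.8% against 9.55 to 12% in SCaBER. The luminal sum was 2329 to 2623 CPM against 2588 to 3125 CPM in RT112 and 875 to 1199 CPM against 1089 to 1338 CPM in SCaBER, and the part of these values in the result was not tested.

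HSPA5 was lower with FOXA1 siRNA in both lines here. In RT112 it was at 282, 236, 395 and 421 CPM with siZBED2 (siZBED2-1 first) and at 248, 215, 311 and 293 CPM in the corresponding double knock-downs (−0.30 ± 0.10, adjusted p = 0.0297). In SCaBER it was at 926, 985, 984 and 1144 CPM against 598, 533, 843 and 823 CPM (−0.55 ± 0.07, adjusted p = 2.12e-06). The SCaBER groups did not overlap, and those of RT112 did, since HSPA5 was already low with siZBED2-1. CALR rose in both (RT112 0.35 ± 0.08, adjusted p = 0.00327, and SCaBER 0.28 ± 0.07, adjusted p = 0.0055). PDIA6 (0.29 ± 0.09 and 0.35 ± 0.07), RPN2 (0.40 ± 0.08 and 0.32 ± 0.09), MANF (0.51 ± 0.12 and 0.52 ± 0.12), DNAJC3 (0.45 ± 0.13 and 0.43 ± 0.12) and HSP90B1 (0.25 ± 0.09 and 0.40 ± 0.07) also passed in both lines, with adjusted p from 0.000122 to 0.0455. The RT112 value of HSP90B1 was −0.02 with limma on log2(TPM + 1), and the library groups overlapped there, from 643 to 815 CPM with siZBED2 and from 602 to 1135 CPM in the double knock-downs. In RT112 only CALR, DNAJB9, MANF, SYVN1 and RPN2 were called whichever library was left out, and HSPA5 ranged from −0.363 to −0.234. In SCaBER those called each time were HSPA5, HSP90B1, CALR, HYOU1, PDIA6, SDF2L1 and MANF.

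Other genes passed in a single line. In RT112 these were DNAJB9 (1.27 ± 0.30, adjusted p = 0.00298), SYVN1 (0.76 ± 0.17, adjusted p = 0.00265), SPCS2 (0.57 ± 0.17, adjusted p = 0.0215) and DDOST (0.71 ± 0.21, adjusted p = 0.0178), which were higher, and DNAJC10, which was lower (−0.46 ± 0.16, adjusted p = 0.0377). In SCaBER they were SDF2L1 (0.60 ± 0.13, adjusted p = 0.0015), HYOU1 (0.46 ± 0.11, adjusted p = 0.00385), HERPUD1 (0.44 ± 0.14, adjusted p = 0.0337), SPCS3 (0.30 ± 0.10, adjusted p = 0.0434), P4HB (0.28 ± 0.09, adjusted p = 0.0342) and PDIA3 (0.28 ± 0.09, adjusted p = 0.0367). The RT112 values of HYOU1 (0.23 ± 0.13, adjusted p = 0.234), HERPUD1 (0.44 ± 0.20, adjusted p = 0.126) and SDF2L1 (0.31 ± 0.19, adjusted p = 0.279) and the SCaBER values of DNAJB9 (0.62 ± 0.22, adjusted p = 0.0694), SYVN1 (0.14 ± 0.14, adjusted p = 0.627) and DNAJC10 (0.02 ± 0.11, adjusted p = 0.932) did not pass. Of the pathway lists, SESN2 (0.93 ± 0.19, adjusted p = 0.00106, and 0.89 ± 0.14, adjusted p = 2.37e-05), FKBP14 (1.16 ± 0.13, adjusted p = 7.88e-07, and 0.52 ± 0.12, adjusted p = 0.00229) and FAF2 (0.68 ± 0.12, adjusted p = 0.000111, and 0.47 ± 0.11, adjusted p = 0.00395) were higher in RT112 and SCaBER. Of the 10, 19, 11 and 21 genes tested in the 4 lists in the order above, 3, 3, 3 and 1 were higher and 0, 3, 0 and 1 lower in RT112, beside 9.88% and 10.2% of all genes, and 1, 1, 1 and 0 were higher and none lower in SCaBER, beside 5.24% and 4.9%.

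Whether the response to the FOXA1 siRNA changed with ZBED2 knock-down was tested by the interaction of the siRNAs. The test averaged the 2 ZBED2 siRNAs, so effects of opposite direction could cancel, and no interaction was tested for either siRNA by itself. In RT112, mean ZBED2 was also lower with siFOXA1 alone, at 3.49 CPM against 19.5 CPM with siControl. No ER gene passed in either line by edgeR, where 0.309% of all genes were called higher and 0.302% lower in RT112 and 1.07% and 1.21% in SCaBER. At an unadjusted p under 0.05 there were 3 ER genes in RT112 and 5 in SCaBER. DESeq2 called 1 in RT112, HSP90B1, and 0 in SCaBER, and limma 0 in each.

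The ZBED2 siRNAs differed from each other. Against siControl in RT112, siZBED2-1 had 1 ER gene higher and 2 lower, where 4.35% and 4.45% of all genes were called, and siZBED2-2 had none in either direction, where 0.136% and 0.0302% were. In SCaBER, siZBED2-1 had 4 higher and 0 lower, against 2.19% and 2.45%, and siZBED2-2 again none, against 0.427% and 0.198%. For siZBED2-2, 3 ER genes in RT112 and 1 in SCaBER had an unadjusted p under 0.05, and DESeq2 called 1, HSP90B1 as lower, and 0. With a replicate block siZBED2-1 had 6 calls in RT112 rather than 3, with SSR3, P4HB and XBP1 added as higher. Scaled to library size or with limma on log2(TPM + 1), HSPA5 alone was called there. HSPA5 was also the only one of the 3 calls kept whichever library was left out, and CALR and SDF2L1 were lost without any 1 of the 4 libraries.

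HSPA5 fell with siZBED2-1 in RT112, from 467 and 435 CPM to 282 and 236 CPM (−0.80 ± 0.14, adjusted p = 0.000342). With siZBED2-2 it was at 395 and 421 CPM, below both siControl libraries but close to them. The direct comparison of the siRNAs gave −0.65 ± 0.14 (adjusted p = 0.00349). In SCaBER, HSPA5 was at 1179 and 1151 CPM against 926 and 985 CPM with siZBED2-1 (−0.31 ± 0.10, adjusted p = 0.091), which passed as lower with a replicate block and with DESeq2, and the comparison with siZBED2-2 gave −0.18 ± 0.10 (adjusted p = 0.41). CALR moved the other way with siZBED2-1: from 794 and 831 CPM to 1116 and 1042 CPM in RT112 (0.41 ± 0.12, adjusted p = 0.0284) and from 1106 and 1187 CPM to 1514 and 1627 CPM in SCaBER (0.43 ± 0.10, adjusted p = 0.00535). CALR with siZBED2-1 lay above every siControl and siZBED2-2 library of the same line. The remaining RT112 call was SDF2L1, lower at 28.1 and 25.9 CPM against 48.3 and 48.4 CPM (−0.84 ± 0.27, adjusted p = 0.0462), whereas in SCaBER it was at 78.9 and 76.3 CPM against 55.4 and 57.1 CPM (0.44 ± 0.18, adjusted p = 0.192).

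In SCaBER, siZBED2-1 also raised XBP1, from 71.8 and 74.0 CPM to 116 CPM in both libraries (0.64 ± 0.18, adjusted p = 0.0266). SSR1 rose from 136 and 123 CPM to 184 and 206 CPM (0.56 ± 0.14, adjusted p = 0.0121), and SSR3 from 207 and 227 CPM to 279 and 314 CPM (0.43 ± 0.13, adjusted p = 0.0465). None of these groups overlapped. FOXA1 was at 2.81 and 0.185 CPM in these siZBED2-1 libraries, and its part in the result was not tested. The RT112 values were 0.64 ± 0.21 for XBP1 (adjusted p = 0.0607), 0.33 ± 0.16 for SSR1 (adjusted p = 0.239) and 0.39 ± 0.15 for SSR3 (adjusted p = 0.1). No SCaBER call of siZBED2-1 was kept in every fit that left out a library, and with limma on log2(TPM + 1) there was none.

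Compared directly, siZBED2-1 had 2 ER genes higher and 1 lower than siZBED2-2 in RT112, where 3.77% and 4% of all genes were called. These were CALR (0.42 ± 0.12, adjusted p = 0.0244), EIF2AK3 (1.61 ± 0.42, adjusted p = 0.0163) and HSPA5. EIF2AK3, the PERK gene, was at 17.2 and 20.8 CPM with siZBED2-1, at 5.6 and 6.82 CPM with siZBED2-2 and at 13.1 and 9.2 CPM with siControl, so the siRNAs lay on opposite sides of siControl. Without siZBED2-1 replicate 2 no ER gene was called, and EIF2AK3 was lost without either siZBED2-2 library as well and CALR without any 1 of the 4 libraries. With limma on log2(TPM + 1) HSPA5 alone was called. In SCaBER, EIF2AK3 was at 22.3 and 18.1 CPM against 17.8 and 18.5 CPM (0.12 ± 0.30, adjusted p = 0.901). The single SCaBER call was CANX, at 1027 and 1038 CPM against 748 and 853 CPM (0.34 ± 0.10, adjusted p = 0.0493), with none lower, where 1.61% and 2.4% of all genes were called. CANX was not called when any of its 4 libraries was left out, with scaling to library size, without the filter on low counts, with limma on log2(TPM + 1) or in a fit of the compared groups only. With a replicate block, and with DESeq2, 4 ER genes were higher in SCaBER, CALR, HYOU1 and SPCS3 in addition to CANX.

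**Figure D3:**
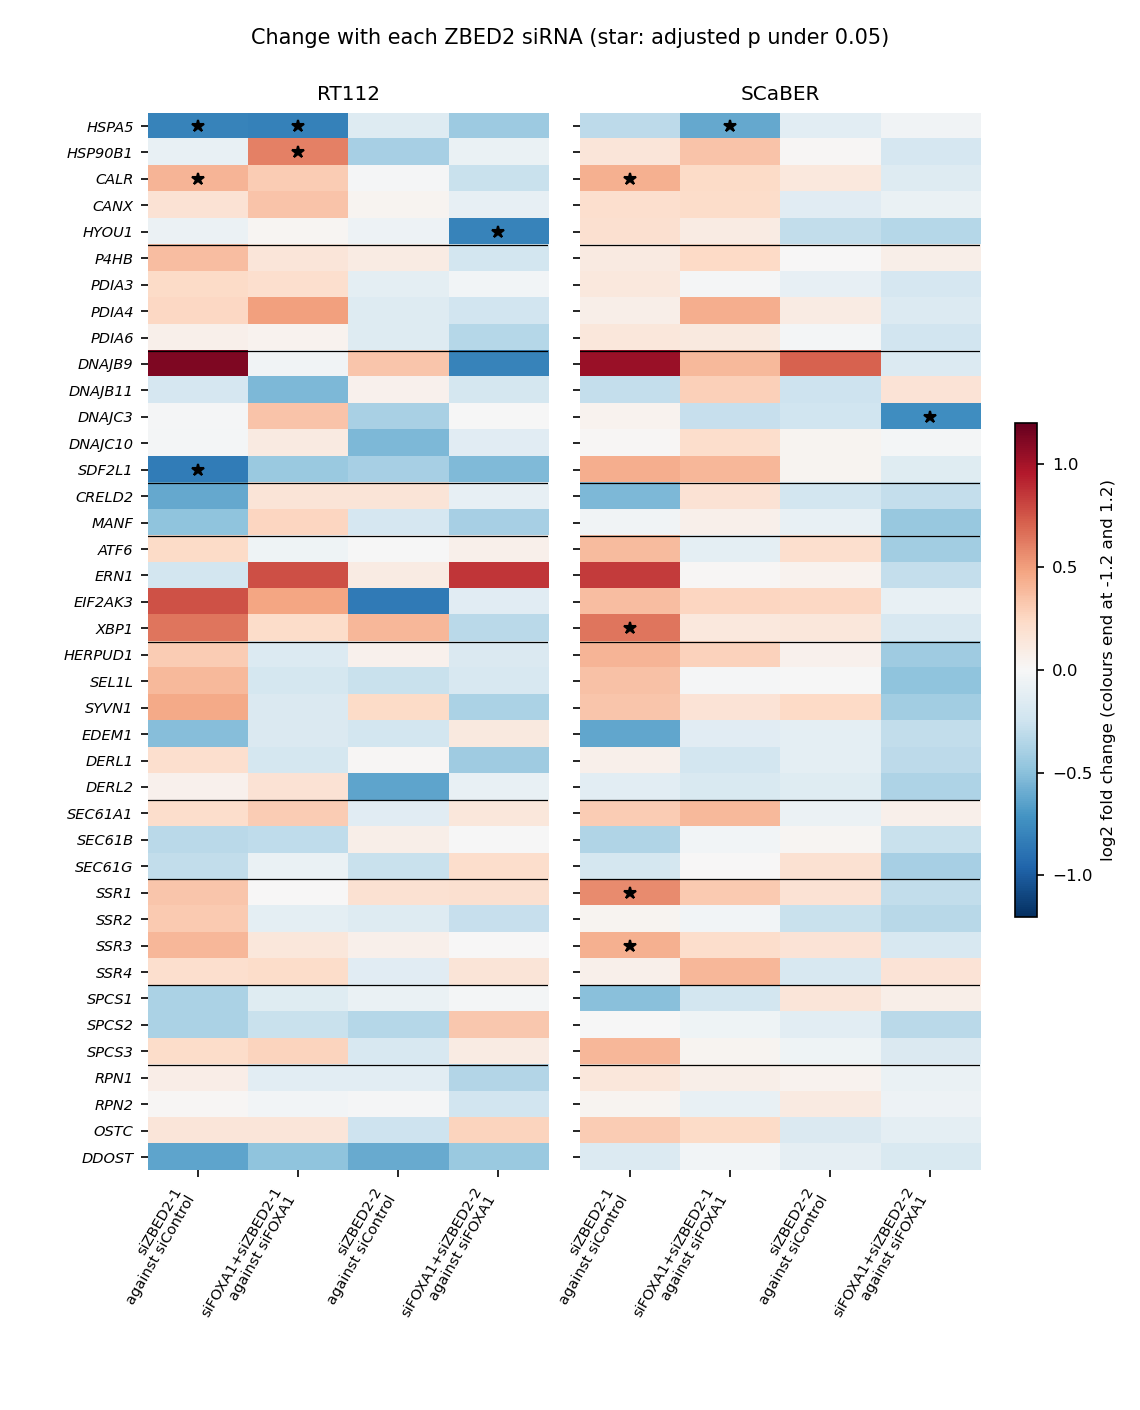
Log2 fold change (colour, from −1.2 to 1.2) of the 40 tested ER genes for each ZBED2 siRNA, alone against siControl and added to siFOXA1 against siFOXA1 alone, in RT112 and SCaBER; stars mark calls. The siZBED2-1 columns of HSPA5 are blue in both lines, from −0.81 to −0.31, and the 2 siZBED2-2 columns carry 1 star in each line, HYOU1 in RT112 and DNAJC3 in SCaBER.

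Added to siFOXA1, siZBED2-1 lowered HSPA5 in both lines. Alone, siZBED2-1 had passed in RT112 and missed the threshold in SCaBER. Whether its effect differed with and without siFOXA1 was not tested for this siRNA by itself. In RT112 HSPA5 went from 371 and 445 CPM to 248 and 215 CPM (−0.81 ± 0.14, adjusted p = 0.00134), and in SCaBER from 910 and 823 CPM to 598 and 533 CPM (−0.62 ± 0.11, adjusted p = 0.00035). These calls were kept whichever library was left out, but with limma on log2(TPM + 1) no ER gene was called in either line. HSP90B1 rose in RT112, from 702 and 732 CPM to 1030 and 1135 CPM (0.60 ± 0.12, adjusted p = 0.00669; not called without siFOXA1+siZBED2-1 replicate 2), and was at 1530 and 1683 CPM against 1986 and 2086 CPM in SCaBER (0.34 ± 0.10, adjusted p = 0.0507). The libraries of the 2 groups did not overlap for either gene in either line. The counts were thus 1 higher and 1 lower in RT112, where 1.55% and 0.995% of all genes were called, and 0 and 1 in SCaBER, where 1.35% and 1.39% were. A replicate block gave 1 higher, HSP90B1, and 1 lower in SCaBER.

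Added to siFOXA1, siZBED2-2 had 0 ER genes higher and 1 lower in each line, where 0.897% and 0.354% of all genes were called in RT112 and 2.25% and 1.41% in SCaBER. In RT112 this was HYOU1, at 135 and 127 CPM against 69.1 and 81.5 CPM (−0.80 ± 0.19, adjusted p = 0.0282) and thus below both siControl libraries. In SCaBER HYOU1 was at 187 and 158 CPM against 134 and 135 CPM (−0.34 ± 0.15, adjusted p = 0.272). The SCaBER call was DNAJC3, at 128 and 149 CPM against 85.2 and 77.8 CPM (−0.75 ± 0.16, adjusted p = 0.0047), near its siControl levels of 71.3 and 80.9 CPM. In RT112 DNAJC3 was at 110 and 96.0 CPM against 102 and 103 CPM (−0.01 ± 0.18, adjusted p = 1). The RT112 call of HYOU1 was lost when any of the 4 libraries of that comparison was left out, and the SCaBER call of DNAJC3 when siFOXA1 replicate 2 or siFOXA1+siZBED2-2 replicate 2 was left out.

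**Figure D4:**
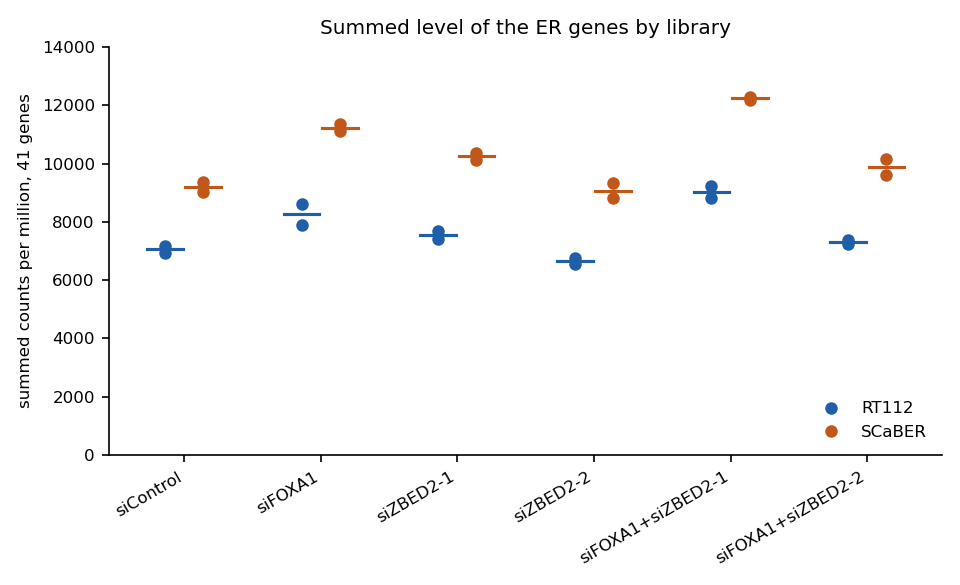
Summed level in CPM of the 41 ER genes in each library (points) and the mean of each group of 2 (lines), for RT112 (blue) and SCaBER (orange), on an axis from 0. The siFOXA1+siZBED2-1 libraries are highest in both lines, at 8830 to 9221 CPM in RT112 and 12182 to 12298 CPM in SCaBER, and the siZBED2-2 libraries are at 6535 to 6750 CPM and 8808 to 9322 CPM.

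Summed over the 41 genes, the level was 6937 to 7162 CPM in RT112 siControl and 7893 to 8610 CPM with siFOXA1, and 9026 to 9357 CPM and 11109 to 11355 CPM in SCaBER. The siFOXA1+siZBED2-1 libraries lay above the siFOXA1 libraries in both lines, and those of siFOXA1+siZBED2-2 below them, at 7241 to 7367 CPM in RT112 and 9592 to 10165 CPM in SCaBER. With siZBED2-1 alone the sum was 7409 to 7690 CPM and 10127 to 10363 CPM, above siControl in both lines. A few abundant chaperones dominate this sum: the 5 ER chaperones made up 2843 to 2863 CPM of it in RT112 siControl and 4486 to 4532 CPM in SCaBER siControl.

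The lines also differed without knock-down. In siControl, 14 ER genes were lower in RT112 than in SCaBER and 4 were higher, where 17.2% and 16.4% of 14823 genes were called lower and higher, and the median log2 difference of the ER genes was −0.39 against 0.00 for all genes. HSPA5 was furthest among the chaperones, at 467 and 435 CPM in RT112 against 1179 and 1151 CPM in SCaBER (−1.37 ± 0.12, adjusted p = 7.04e-11). HSP90B1 (−0.49 ± 0.11, adjusted p = 0.000666), CALR (−0.50 ± 0.11, adjusted p = 0.000435) and CANX (−0.44 ± 0.11, adjusted p = 0.00128) were lower as well, so that 4 of the 5 chaperones were lower in the luminal line. Of the other roles, the lower genes were PDIA3 and PDIA6, DNAJB11 and DNAJC10, CRELD2, ATF6, SYVN1, SSR2, SPCS2 and SPCS3, with log2 differences from −1.06 for SPCS2 to −0.34 for PDIA6. The genes higher in RT112 were P4HB (0.32 ± 0.13, adjusted p = 0.0486), EDEM1 (1.42 ± 0.41, adjusted p = 0.00665), a mannose-binding factor of degradation, SSR1 (0.46 ± 0.15, adjusted p = 0.0208) and RPN2 (0.53 ± 0.12, adjusted p = 0.000666). EDEM1 was at 28.6 and 24.7 CPM against 8.42 and 11.4 CPM. On the TPM scale none was higher and 22 were lower, with the median of all genes at −0.18. Line and culture medium cannot be told apart in this comparison.

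**Figure D5:**
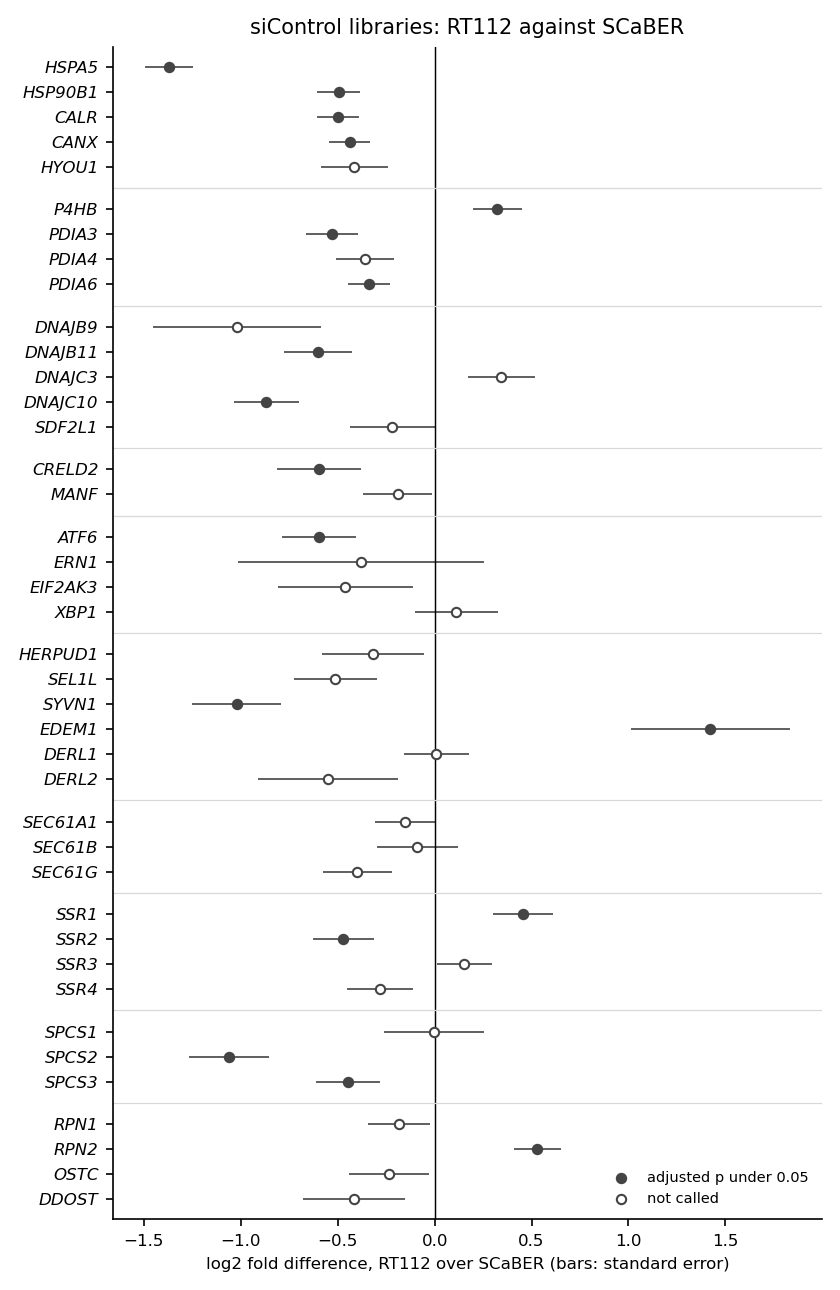
Log2 difference between RT112 and SCaBER siControl libraries (points, with the standard error as bars) for the 40 tested ER genes, grouped by role; filled points passed the test. HSPA5 lies furthest to the left at −1.37 and EDEM1 furthest to the right at 1.42.

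Across the 18 comparisons, 30 of the 40 tested genes were called at least once by edgeR as described above. The share of all genes called at least once was not counted, so this number has no background beside it. The 10 called in none were PDIA4, ERN1, SEL1L, DERL2, SEC61A1, SEC61B, SEC61G, SSR4, SPCS1 and RPN1. Of these, ERN1, DERL2 and RPN1 were not called in any alternative fit either. SEC61B was called higher in the double knock-downs of both lines as given above, and SPCS1 in those of RT112 with a replicate block. PDIA4, SEL1L, SEC61A1, SEC61G and SSR4 were lower in RT112 than in SCaBER siControl with limma on log2(TPM + 1), and SEC61G also without the filter on low counts. Leaving out 1 library called SEL1L, SEC61B, SEC61G, SSR4 or SPCS1 in some comparisons. The depth of the 10 genes was not alike: RPN1 ranged from 92.8 to 147 CPM in RT112 and from 120 to 156 CPM in SCaBER, whereas DERL2 ranged from 7.72 to 24.7 CPM and from 12.0 to 25.8 CPM. At the levels of DERL2 and ERN1 the standard errors of the siFOXA1 change were 0.31 to 0.73 on the log2 scale, so that changes of the size seen for CALR were not detectable there.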

How the data were processed

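The authors trimmed reads with TrimGalore (0.6.2), aligned them with STAR (2.6.1a) to hg38 with GENCODE 29 per the labels, and deposited raw gene counts and a TPM table for 24 libraries (12 groups of 2). The study's text names hg19, so coordinates here come only from RefSeq GRCh38.p14. No depositor's fold changes were used. Replicates are separate samples numbered as experiment batches. Nothing in the sources states separate cultures, so p-values measure the spread between these libraries.

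Counts were tested in R 4.3.3 with edgeR 4.0.16 (TMM scaling, genes with at least 10 counts by group and 15 in total, quasi-likelihood F-test), 12 libraries of a line in 1 fit and all 24 for comparisons of lines, with Benjamini-Hochberg adjustment over all genes and calls at an adjusted p under 0.05. CPM used TMM-scaled library sizes. The 41 members, the roles and the pathway and marker lists were chosen with earlier results of these data known. Members called in a FOXA1 or ZBED2 knock-down comparison were given in full, the others by counts and ranges, and pathway lists by counts with up to 4 genes of smallest p, except that further called genes and ATF4 and DDIT3 were added after their values were seen.

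Alternatives were relative-log-expression and library-size scaling, no filter, a replicate block, DESeq2 1.42.0, limma 3.58.1 on log2(TPM + 1) of the deposited TPM values, fits of the compared groups only, and each library left out. The labels' batch numbers gave the pairing. Over 15 pairs per line, same-numbered libraries deviated together weakly over all genes (mean r of 0.0304 in RT112 and 0.0223 in SCaBER, none over 0.1). Over the ER genes alone the mean r was 0.0551 in RT112 and 0.0671 in SCaBER, with 6 and 7 of the 15 pairs over 0.1. No 2 libraries were copies (lowest chi-square per gene 6.1 over 276 pairs).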

Additional observations from a re-analysis of the deposited data

Results flagged for a closer look

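The response of HSP90B1 to siFOXA1 differed between the lines by the test of the difference itself, with RT112 less SCaBER at −0.67 ± 0.16 on the log2 scale (adjusted p = 0.0134, edgeR). The gene was at 840 and 860 CPM against 702 and 732 CPM in RT112 and at 1172 and 1222 CPM against 1530 and 1683 CPM in SCaBER. Both RT112 siFOXA1 libraries were below the siControl libraries, and both SCaBER siFOXA1 libraries were above them. For this difference DESeq2 called other ER genes besides HSP90B1, and limma on log2(TPM + 1) called none. The lines were grown in different media, so line and medium cannot be told apart.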

How the results depend on the processing

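Most values of single genes kept their direction. The alternatives were run on 156 gene and comparison pairs, of which 90 were calls of ER genes and the rest included uncalled values. Of the alternatives, 1477 kept direction and side of the threshold, 325 lost the threshold, 22 gained it and 25 turned direction. Values that stayed uncalled count among those kept, so these numbers do not measure how many calls were kept. Scaling to library size left 6 ER genes called for siFOXA1 in RT112, 1 for siZBED2-1 in RT112, 0 for siZBED2-2 added to siFOXA1 in RT112, 0 for siZBED2-1 against siZBED2-2 in SCaBER, and 2 for siZBED2-1 added to siFOXA1 in SCaBER. Without the filter on low counts these last SCaBER comparisons had 0 and 2. With a replicate block, siZBED2-1 in RT112 had 6 calls, siZBED2-1 against siZBED2-2 in SCaBER 4, siZBED2-1 added to siFOXA1 in SCaBER 2 and the line difference of siFOXA1 2. The replicate block moved no other count by over 1.5 times. DESeq2 gave 1 call for siZBED2-2 in RT112, 3 for siZBED2-2 added to siFOXA1 in RT112, 1 for the RT112 interaction, 4 for siZBED2-1 against siZBED2-2 in SCaBER, 2 for siZBED2-1 added to siFOXA1 in SCaBER and 5 for the line difference. With limma on log2(TPM + 1) the counts were 3 for siFOXA1 in each line, 1 for siZBED2-1 in RT112 and 0 in SCaBER, 1 and 0 for siZBED2-1 against siZBED2-2, 2 and 4 for the double knock-downs, 0 for each siZBED2 siRNA added to siFOXA1 in each line, and 0 for the line difference. A fit of the compared groups only gave 0 for siZBED2-2 added to siFOXA1 in RT112 and 0 for siZBED2-1 against siZBED2-2 in SCaBER. The cause of these changes was not tested.

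Leaving out 1 library gave 4 to 14 calls for siFOXA1, 1 to 2 for siZBED2-1, 0 to 3 for siZBED2-1 against siZBED2-2, 7 to 13 for the double knock-downs, 1 to 2 for siZBED2-1 and 0 for siZBED2-2 added to siFOXA1 in RT112. In SCaBER it gave 11 to 15, 0 to 2, 0 to 1, 8 to 13, 1 to 2 and 0 to 3 in the same order, and the line difference had 0 to 2 and the line comparison of siControl 12 to 15. The 7 for the RT112 double knock-downs came without siZBED2-2 replicate 1 or siFOXA1+siZBED2-1 replicate 2, and the 8 for SCaBER without siFOXA1+siZBED2-2 replicate 2. A lone library was then assumed to vary like the other groups.

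The direction turned for the genes below, where the values in brackets are those of the alternative fits. Not all were near 0 in the main fit. The main values of XBP1, ATF6 and MANF with siFOXA1 in RT112, and of HSP90B1 and HYOU1 in the RT112 double knock-downs, were further from it, as given above. With scaling to library size these were DNAJC3 (−0.0164) with siFOXA1 in RT112, DNAJC3 (0.0309) with siZBED2-2 added to siFOXA1 in RT112, SSR2 (−2.8e-06) with siFOXA1 in SCaBER and DNAJC10 (−0.000532) in the SCaBER double knock-downs. On log2(TPM + 1) they were DNAJC3 (−0.221), SDF2L1 (−0.136), MANF (−0.0797) and ATF6 (−0.0243) with siFOXA1 in RT112, CANX (−0.0659) for siZBED2-1 against siZBED2-2 in RT112, HSP90B1 (−0.0172) and HYOU1 (−0.0202) in the RT112 double knock-downs, DNAJC3 (0.117) with siZBED2-2 added to siFOXA1 in RT112, SSR2 (−0.056) with siFOXA1 in SCaBER and DNAJC10 (−0.0159) in the SCaBER double knock-downs. Of these, the RT112 double knock-down value of HSP90B1 alone had been called. Leaving out 1 library gave values of both signs with siFOXA1 in RT112 for DNAJC3 (−0.056 to 0.215), XBP1 (−0.0357 to 0.691), SSR1 (−0.257 to 0.178) and SPCS3 (−0.464 to 0.113), and in SCaBER for DNAJC10 (−0.175 to 0.0901) and SSR2 (−0.0281 to 0.187). It did so too for DNAJC3 with siZBED2-2 added to siFOXA1 in RT112 (−0.107 to 0.101), EIF2AK3 for siZBED2-1 against siZBED2-2 in SCaBER (−0.0326 to 0.269) and DNAJC10 in the SCaBER double knock-downs (−0.0388 to 0.072).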
